A study of Nicotiana tabacum with 21 samples.

Results

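The transcriptomes of 2 auxin-dependent tobacco (Nicotiana tabacum) suspension lines, BY-2 and VBI-0, were compared in stationary cells. The comparison used 3 BY-2 and 3 VBI-0 libraries, 6 of the 21 libraries of the series, chosen by their labels. The series was made to compare these lines with BY-2H and VBI-2, lines that proliferate without supplied auxin. BY-2 cells come from cultivar Bright Yellow 2 and, by the study's methods, grew in Murashige and Skoog medium with the synthetic auxin 2,4-D. VBI-0 cells come from cultivar Virginia Bright Italia and grew in modified Heller medium with 2,4-D and a second synthetic auxin, NAA. Both lines were kept in the dark and received no other treatment. All 6 libraries were made by the same sequencing company as single reads of 50 bp.

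The harvest day of the BY-2 cells is given in conflicting ways. The study's supplement gives 7 d for stationary BY-2 and 10 d for stationary VBI-0 cells, whereas the text of the data series gives 10 d for stationary cells of any line. Its methods give a subculture interval of 7 d for BY-2 and 14 d for VBI-0, and the sample labels 14 d for all lines. Cultivar, medium, kind and dose of auxin, and possibly culture age therefore changed together between the 2 groups and cannot be told apart. Each line is a single culture lineage, and the labels call the 3 libraries of a line biological replicates without saying whether they came from separate flasks. The p-values below therefore measure only the spread between these libraries.

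Auxin is perceived by F-box proteins of the TIR1/AFB family, which in its presence bind AUX/IAA repressors and mark them for degradation, so that ARF transcription factors can act on their targets. Many AUX/IAA, SAUR and GH3 genes are themselves transcribed in response to auxin. Cells make the natural auxin IAA mainly through TAA and YUCCA enzymes, and inactivate it by conjugation, oxidation, glycosylation or methylation. LAX, PIN and ABCB proteins carry auxin across the plasma membrane, and PILS proteins act at the endoplasmic reticulum. Cultured auxin-dependent cells stop dividing when auxin is withdrawn, which is why such lines are used to study these components.

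With counts scaled between libraries by TMM, which centres fold changes, nearly equal numbers of transcripts were higher and lower in BY-2. Calls on TPM, given below, were less even. Of 69491 transcripts in the reference set, 48219 were tested, and 11892 (24.7%) were higher and 12353 (25.6%) lower in BY-2 at an adjusted p of at most 0.05 (edgeR quasi-likelihood test, Benjamini-Hochberg) and a log2 fold change of 1 or more in size. With both directions together 50.3% of transcripts were called, which is the background for every count below. Of those called, 5761 had a fitted log2 fold change of 5 or more in size. Where a line had no reads, the fitted size can exceed what the counts bound. Nitab4.5_0003128g0050.1, with 0 reads in BY-2 and 38 in VBI-0, was fitted at -6.41 but bounded at -3.15 with 3 reads assumed in BY-2. How many of the 5761 are of this kind was not counted. A mean TPM (the transcript share scaled for length and depth) above 0.5 was reached by 36854 transcripts in BY-2 and by 39695 in VBI-0. In both lines it was reached by 32396, in BY-2 alone by 4458 and in VBI-0 alone by 7299. The median log2 fold change over all tested transcripts was -0.07.

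The TPM values of BY-2 were on the whole lower than those of VBI-0. The median log2 ratio of mean TPM over transcripts above 0.5 in both lines was -0.383. Sums of TPM below include this shift, and a ratio relative to it is given for some of them. On log2(TPM + 0.5), limma called 7821 transcripts higher and 15229 lower, and the higher calls made up 33.9% of all calls as against 49.0% in the test on counts. Reads of the 10 leading transcripts made up 4.07% to 4.93% of a BY-2 library and 1.67% to 1.81% of a VBI-0 library. Replicates also spread more in BY-2, where chi-square per degree of freedom between pairs of libraries was 28.6 to 31.6, as against 3.87 to 6.72 in stationary VBI-0. BY-2 replicate 2 had the lowest RNA integrity number of these 6 samples in the study's sample list. The part of these differences in the results was not tested. The files hold no annotated marker of a cell type, and in bulk RNA fewer cells of one kind and less RNA per cell cannot be told apart.

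**Figure D1:**
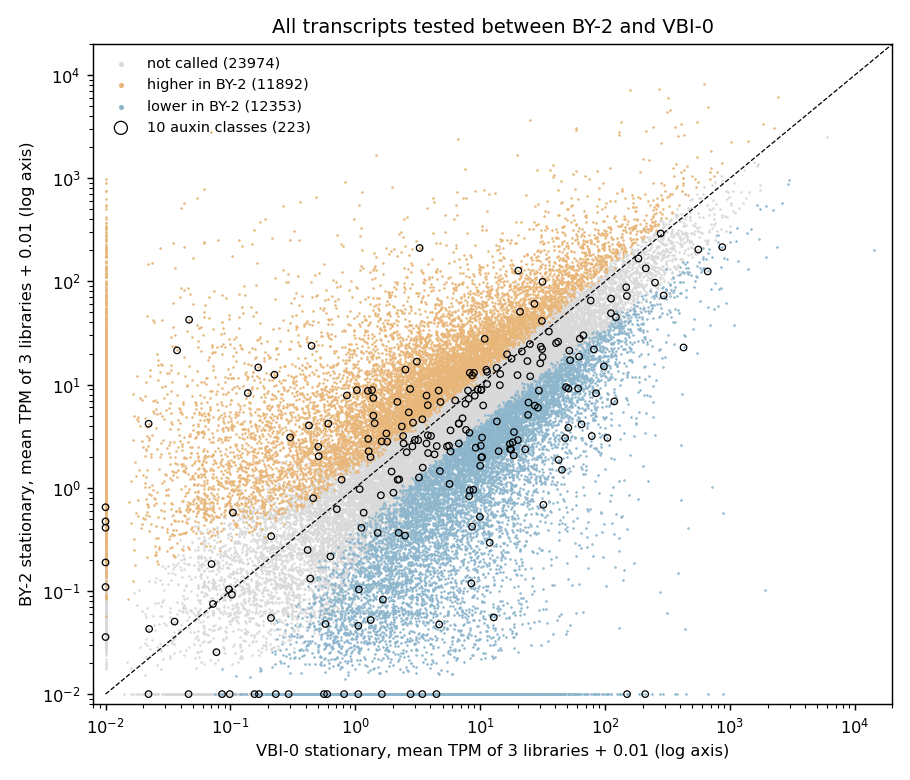
Mean TPM of each of the 48219 tested transcripts in stationary VBI-0 (horizontal) and BY-2 (vertical), 3 libraries each, with 0.01 added on log axes. Orange points were called higher and blue points lower in BY-2, open circles mark the 223 tested members of 10 auxin classes, and the vertical and horizontal rows of points at 0.01 are transcripts listed at 0 in one line.

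Auxin-related transcripts leaned toward lower levels in BY-2. Of the study's list of auxin-related genes 826 transcripts were tested, and 188 were higher and 237 lower. The unclassified part of that list, with 580 tested, lay nearer to all transcripts. In it 143 were higher and 161 lower, the median log2 fold change was -0.15, and the log2 ratio of summed TPM was -0.01 relative to the median shift of TPM. On that list 282 transcripts belong to 10 functional classes, and 223 of these were tested: 40 were higher, 67 lower and 116 not called. The share called was 48.0%, close to the 50.3% of all transcripts, so a difference as such did not set these classes apart. Their median log2 fold change was -0.40, and -0.33 with low-count transcripts set at their bound and 12 transcripts at or under 3 reads in each line left out, beside -0.07 over all transcripts. Their TPM summed to 2930, 3460 and 4080 in the BY-2 libraries, from lowest to highest, and to 7330, 7460 and 7780 in the VBI-0 libraries. The sums did not overlap, and the log2 ratio of their means was -1.11, which is -0.73 relative to the median shift of TPM.

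**Figure D2:**
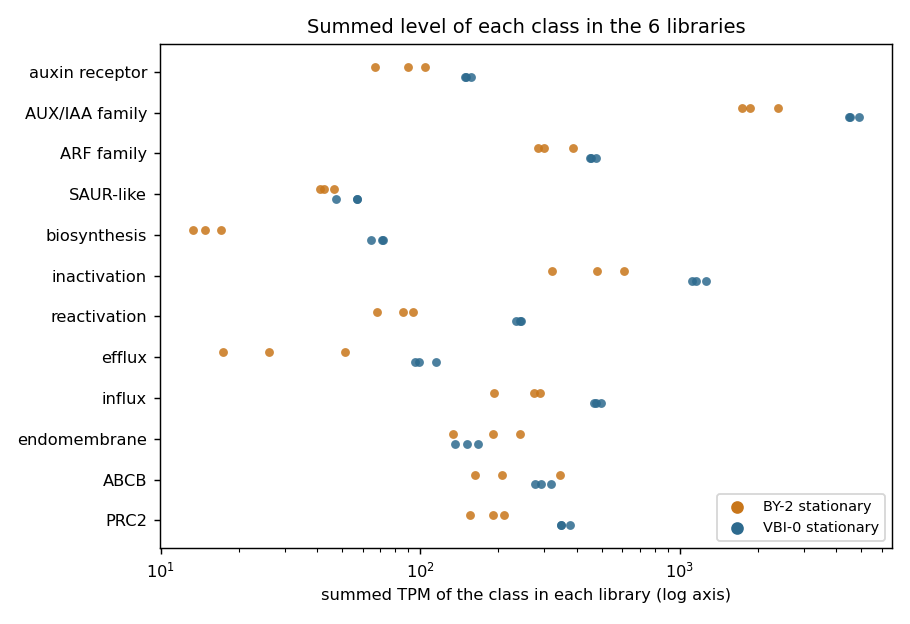
Summed TPM of the members of each class in each of the 3 BY-2 (orange) and 3 VBI-0 (blue) libraries, on a log axis and not corrected for the median shift of TPM. The sums of receptor, AUX/IAA, ARF, biosynthesis, inactivation, reactivation, efflux and influx transcripts lay lower in BY-2 without overlap, whereas those of the endomembrane (PILS) and ABCB classes overlapped between the lines.

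Among receptors, both copies of TIR1 were higher in BY-2, whereas most other F-box receptors were not called. TIR1 is the founding auxin receptor of Arabidopsis, and tobacco, an allotetraploid, carries a copy from each of its ancestors (S and T). NtTIR1T (Nitab4.5_0000824g0070.1) had 11.7, 6.04 and 5.81 TPM in BY-2 replicates 1 to 3 and 0.724, 0.693 and 1.12 TPM in VBI-0. NtTIR1S (Nitab4.5_0003614g0030.1) had 3.76, 2.71 and 2.43 TPM in BY-2 and 1.71, 0.778 and 1.28 TPM in VBI-0. All BY-2 libraries lay above all VBI-0 libraries for both copies, most clearly for the T copy. The log2 fold change was 3.42 ± 0.40 (SE, n = 3 and 3) for NtTIR1T (edgeR adjusted p = 6.44e-05) and 1.48 ± 0.37 for NtTIR1S (edgeR adjusted p = 0.00688). The call for NtTIR1S was lost with limma on log2(TPM + 0.5), where the log2 fold change was 0.99, just under the limit.

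Of the 13 tested receptors 3 were higher and 2 lower in BY-2. The third higher one, Nitab4.5_0002093g0180.1, had 3.06, 1.68 and 2.71 TPM in BY-2 and 0.51, 0.444 and 0.532 TPM in VBI-0, a log2 fold change of 2.50 ± 0.33. Another receptor on the same scaffold, Nitab4.5_0002093g0100.1, was not called (0.67 ± 0.27). The most abundant receptor in both lines was Nitab4.5_0005161g0090.1, with 22.9, 20.4 and 20.7 TPM in BY-2 and 50.1, 52.8 and 52.3 TPM in VBI-0. Its libraries did not overlap, but its log2 fold change of -0.80 ± 0.17 (edgeR adjusted p = 0.00268) did not reach the limit of 1. The lower receptors were Nitab4.5_0000190g0020.1 (-2.04 ± 0.24 on the log2 scale) and Nitab4.5_0000519g0220.1 (-1.32 ± 0.33). NtTIR1T was among the lowest of the detected receptor transcripts in VBI-0 and stood in the middle of them in BY-2. The scaffold of NtTIR1T, looked at after its values were seen, held 10 tested transcripts, 4 of them higher and 1 lower in BY-2, and one of those higher was the ARF transcript Nitab4.5_0000824g0120.1 (2.12 ± 0.31).

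AUX/IAA transcripts, which encode the short-lived repressors of auxin signalling, included strong contrasts in both directions. Of 47 tested, 18 were lower, 7 higher and 22 not called, with a median log2 fold change of -0.64. Their summed TPM was 1730, 1870 and 2380 in BY-2 and 4490, 4510 and 4910 in VBI-0, and by itself this class made up more than any other of the 10 classes in either line. The log2 ratio of the mean sums was -1.22, and -0.84 relative to the median shift of TPM.

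A pair of abundant AUX/IAA transcripts was silent in BY-2. Nitab4.5_0004887g0040.1 had 0 TPM in all BY-2 libraries and 188, 241 and 200 TPM in VBI-0. Nitab4.5_0002327g0090.1 had 0 TPM in BY-2 and 141, 148 and 160 TPM in VBI-0. With a floor of 3 reads over the 3 BY-2 libraries, they were at least 923-fold and at least 64.0-fold lower in BY-2 (edgeR adjusted p = 6.18e-07 and 2.01e-05). The lower bound of the second rests on its few reads, 275 over the 3 VBI-0 libraries. An adjacent AUX/IAA transcript, Nitab4.5_0002327g0080.1, also had no reads in BY-2, and had 0.874, 1.17 and 1.09 TPM in VBI-0. Both Nitab4.5_0004887g0040.1 and Nitab4.5_0002327g0090.1 had a mean TPM of 0 in the BY-2H libraries of both phases. In VBI-2 the first had 0 TPM in stationary cells and the second 6.87 TPM.

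The most abundant AUX/IAA transcript of VBI-0, Nitab4.5_0000377g0200.1, had 182, 210 and 252 TPM in BY-2 and 831, 900 and 872 TPM in VBI-0. It was lower in BY-2 by a log2 fold change of -1.86 ± 0.14 (edgeR adjusted p = 4.54e-06). The next lowest after the silent transcripts was Nitab4.5_0004899g0110.1, with 2.68, 2.49 and 3.94 TPM in BY-2 and 108, 122 and 82.6 TPM in VBI-0 (-4.56 ± 0.25). In none of these transcripts did the libraries of the lines overlap. BY-2 replicate 3 stood above the other BY-2 libraries in several members. Nitab4.5_0000109g0360.1, for example, had 10.7 and 8.61 TPM in BY-2 replicates 1 and 2 and 49.3 TPM in replicate 3, as against 434, 418 and 422 TPM in VBI-0.

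Other AUX/IAA transcripts were abundant in BY-2 and rare in VBI-0. Nitab4.5_0004203g0040.1 had 210, 199 and 223 TPM in BY-2 and 2.39, 4.42 and 2.97 TPM in VBI-0, a log2 fold change of 6.60 ± 0.27 (edgeR adjusted p = 2.94e-07). Its neighbour on the scaffold, AUX/IAA transcript Nitab4.5_0004203g0060.1, had 117, 82.6 and 301 TPM in BY-2 and 177, 215 and 163 TPM in VBI-0, with overlapping libraries and no call (0.33 ± 0.35). Nitab4.5_0001004g0020.1 had 16.5, 5.99 and 14.8 TPM in BY-2 and 0.4, 0.134 and 0.112 TPM in VBI-0 (6.41 ± 0.54), and Nitab4.5_0000525g0140.1 124, 131 and 126 TPM and 21.4, 25.6 and 13.6 TPM (3.23 ± 0.27). The most abundant member in BY-2, Nitab4.5_0001592g0020.1, was nearly level between the lines, with 352, 271 and 250 TPM in BY-2 and 269, 274 and 293 TPM in VBI-0 (0.63 ± 0.20, not called). By mean TPM the leading AUX/IAA transcript was thus a different one in each line. In BY-2 replicate 3, however, Nitab4.5_0004203g0060.1 (301 TPM) and Nitab4.5_0000377g0200.1 (252 TPM) lay above Nitab4.5_0001592g0020.1 (250 TPM).

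**Figure D3:**
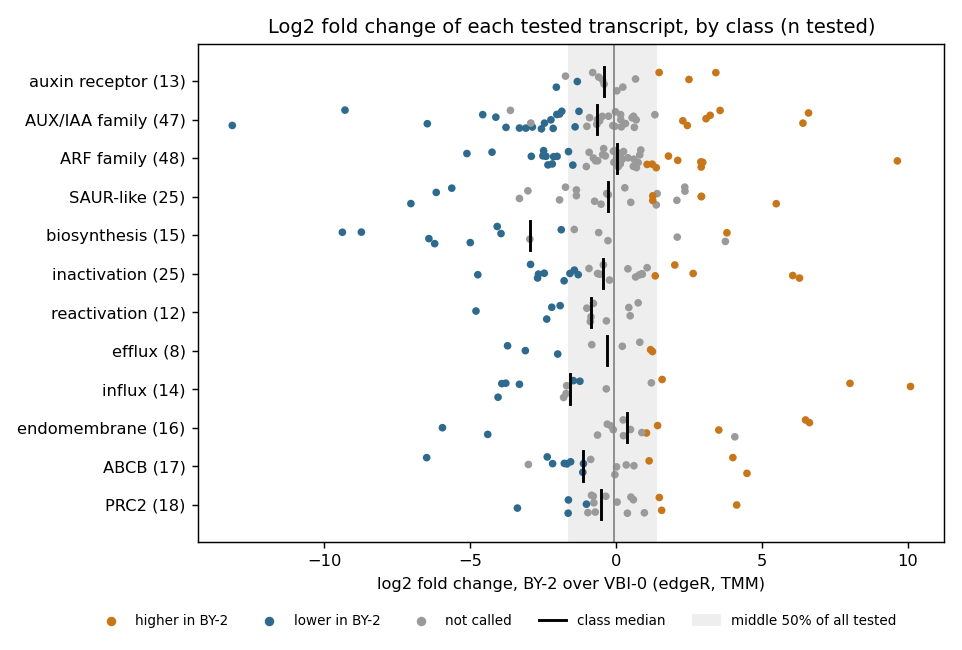
Log2 fold change of BY-2 over VBI-0 (edgeR) for each tested transcript, by class, with the number tested. Orange and blue points passed the test as higher and lower, black bars are class medians and the grey band holds the middle 50% of all tested transcripts, with the median of -0.07 as a line. AUX/IAA members reached from a fitted -13.15 to 6.60, and the biosynthesis median lay at -2.95.

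ARF transcripts, which encode the transcription factors that AUX/IAA proteins hold in check, were divided between the lines. Of 48 tested, 9 were higher, 12 lower and 27 not called, and their median log2 fold change of 0.04 was close to that of all transcripts. NtARF5S (Nitab4.5_0001988g0030.1), whose Arabidopsis relative acts in embryo and vascular patterning, was the most abundant ARF transcript of VBI-0. It had 7.42, 8.18 and 11.8 TPM in BY-2 and 52, 50 and 50.3 TPM in VBI-0. Every BY-2 library lay far below every VBI-0 library, and the log2 fold change was -2.33 ± 0.18 (edgeR adjusted p = 5.68e-06). The lowest ARF transcripts were Nitab4.5_0009686g0010.1 (0.509, 0.0554 and 0.285 TPM in BY-2, 11.5, 11.5 and 12.7 TPM in VBI-0, -5.11 ± 0.50) and Nitab4.5_0005490g0020.1 (-4.25 ± 0.63), followed by Nitab4.5_0003016g0030.1 (-2.90 ± 0.26).

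One ARF transcript was almost absent from VBI-0. Nitab4.5_0000106g0200.1 had 13.9, 10.1 and 40.3 TPM in BY-2, and in VBI-0 0 TPM in replicates 1 and 2 and 0.0822 TPM in replicate 3. With 3 reads in all of VBI-0, the ratio was 972 (95% counting interval 332 to 4716, edgeR adjusted p = 7.57e-06). Its scaffold, examined after the values were seen, held 31 tested transcripts with 13 higher and 6 lower in BY-2, and 6 transcripts silent in VBI-0. Nitab4.5_0000798g0140.1 (2.98 ± 0.33) and Nitab4.5_0002367g0010.1 (2.92 ± 0.33) were the next highest ARF transcripts. The most abundant ARF transcript of BY-2, Nitab4.5_0009330g0010.1, had 34.3, 21 and 42.5 TPM there and 35.9, 36 and 34.5 TPM in VBI-0 (0.02 ± 0.24, not called). The summed TPM of the class had a log2 ratio of -0.51, and -0.12 relative to the median shift of TPM.

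SAUR-like transcripts, a family of small and often auxin-induced genes, were mostly low in both lines. Of 38 listed, 25 were tested, 5 were higher and 3 lower in BY-2. Nitab4.5_0004059g0020.1 had 0, 0.136 and 0 TPM in BY-2 and 12.2, 16.4 and 9.95 TPM in VBI-0, a ratio of 169 from 1 rounded read in BY-2 (95% counting interval 30.0 to 6703). It was the most abundant member of VBI-0. The most abundant member of BY-2, Nitab4.5_0006598g0030.1, had 14.8, 19.3 and 16 TPM there and 2.19, 2.78 and 4.34 TPM in VBI-0 (2.93 ± 0.59). By mean TPM each line thus had its own leading SAUR-like transcript, but the values of Nitab4.5_0006598g0030.1 rest on 44 reads in BY-2 and 8 in VBI-0. Among the others, Nitab4.5_0000400g0010.1 had 0.325, 0 and 0 TPM in BY-2 and 8.59, 6.8 and 10.1 TPM in VBI-0, a ratio of 57.6 (15.7 to 479.7). Nitab4.5_0000227g0080.1 had 0 TPM in BY-2 and 1.34, 1.51 and 2.01 TPM in VBI-0, and Nitab4.5_0000170g0010.1 0.61, 1.15 and 0.154 TPM in BY-2 and 0 TPM in VBI-0. The latter was called higher, at least 6.20-fold, but not without BY-2 replicate 2 (edgeR adjusted p = 0.076). The count of higher members fell from 5 to 3 without VBI-0 replicate 1 and also without VBI-0 replicate 2.

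More transcripts for IAA biosynthesis were lower than higher in BY-2. Of 27 listed, 15 were tested, of which 8 were lower, 1 higher and 6 not called, and the median log2 fold change was -2.95, or -1.87 with low-count transcripts at their bound. The summed TPM was 13.3, 14.8 and 17.1 in BY-2 and 64.7, 71.1 and 72.1 in VBI-0. These sums consist mostly of AMI1, an amidase that can release IAA from indole-3-acetamide. TAA aminotransferases, which carry out the first step from tryptophan, summed to 0.309, 0.325 and 0.648 TPM in BY-2 and 8.37, 10.2 and 12.7 TPM in VBI-0. YUCCA monooxygenases, which carry out the step that follows, summed to 0.556, 0.877 and 1.39 TPM in BY-2 and 7.13, 7.54 and 8.32 TPM in VBI-0.

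Both NtTAA2S transcripts were silent in BY-2. Nitab4.5_0001284g0120.1 had 0 TPM in BY-2 and 3.77, 5.28 and 4.3 TPM in VBI-0, and Nitab4.5_0007239g0020.1 had 0 TPM in BY-2 and 2.72, 3.64 and 1.91 TPM in VBI-0. They were at least 67.3-fold and at least 42.8-fold lower (edgeR adjusted p = 2.14e-05 and 1.00e-04). NtTAA1T is named for 2 transcripts in the study's list. Nitab4.5_0002255g0070.1 had 0, 0.218 and 0 TPM in BY-2 and 1.38, 1.76 and 1.83 TPM in VBI-0, a ratio of 17.0 (95% counting interval 5.59 to 84.3, edgeR adjusted p = 0.00317). Nitab4.5_0000031g0380.1 had 0.325, 0.431 and 0.309 TPM and 0.436, 1.89 and 2.18 TPM, with no overlap and no call (-1.43 ± 0.80).

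Of 8 tested YUCCA transcripts 4 were lower and 4 not called. A YUCCA6 transcript, Nitab4.5_0004968g0010.1, had 0.0406, 0 and 0.0714 TPM in BY-2 and 4.17, 5.41 and 4.49 TPM in VBI-0, a ratio of 80.1 (27.2 to 390.2). A YUCCA4 transcript, Nitab4.5_0003128g0050.1, had 0 TPM in BY-2 and 1.1, 0.599 and 0.706 TPM in VBI-0, at least 8.85-fold lower. Both were thus found almost exclusively in VBI-0, at low levels. NtYUCCA3T (Nitab4.5_0000451g0110.1) had 0 TPM in all BY-2 libraries and 0.466, 0.226 and 0.155 TPM in VBI-0. With 14 reads in all of VBI-0 it was at least 3.26-fold lower (edgeR adjusted p = 0.0297). This call was lost when any one library other than VBI-0 replicate 3 was left out (edgeR adjusted p = 0.0537 to 0.107), and with DESeq2 (adjusted p = 0.0702).

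The AMI1 copies moved in opposite directions. NtAMI1T (Nitab4.5_0000327g0020.1), the most abundant biosynthesis transcript in both lines, had 10.3, 7.94 and 10.1 TPM in BY-2 and 45.9, 47.9 and 52.2 TPM in VBI-0 (-1.87 ± 0.17, edgeR adjusted p = 1.35e-05). NtAMI1S (Nitab4.5_0005818g0010.1) had 2.4, 2.5 and 4.31 TPM in BY-2 and 0.291, 0 and 0.581 TPM in VBI-0 (3.81 ± 0.66, edgeR adjusted p = 0.000784). The libraries of the lines did not overlap for either copy, and the S copy was the only biosynthesis transcript called higher in BY-2.

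**Figure D4:**
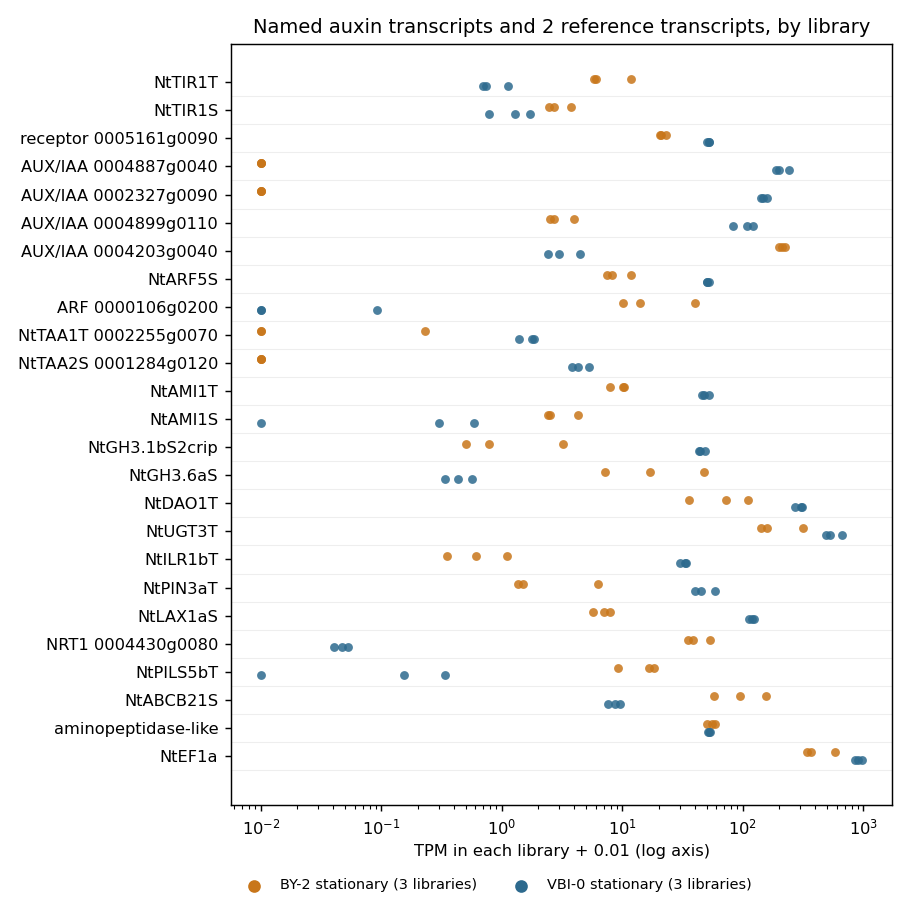
TPM with 0.01 added, on a log axis, of 23 transcripts of the auxin classes and ABCB transporters and of 2 reference transcripts in each of the 3 BY-2 (orange) and 3 VBI-0 (blue) libraries. The TIR1 copies, NtGH3.6aS, NtPILS5bT, NtABCB21S and the NRT1 transcript lay higher in every BY-2 library, 2 AUX/IAA transcripts and NtTAA2S were at 0 in BY-2, and the aminopeptidase-like reference was level.

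Among genes that inactivate IAA, the called GH3.1 transcripts were lower and the called GH3.6 transcripts higher in BY-2. GH3 enzymes join IAA to amino acids. Of 6 tested GH3.1 transcripts 5 were lower in BY-2 and 1 not called, and of 11 tested GH3.6 transcripts 4 were higher and 7 not called. This division by gene name was made after the values were seen. GH3.1 transcripts summed to 19.0, 28.4 and 79.7 TPM in BY-2 and to 161, 162 and 167 TPM in VBI-0. GH3.6 transcripts summed to 83.7, 95.7 and 144 TPM in BY-2 and to 81.8, 81.9 and 86.0 TPM in VBI-0, with overlap. In BY-2 replicate 3 the GH3.1 transcripts stood well above those of the other BY-2 libraries.

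The lowest of them was NtGH3.1bS2crip (Nitab4.5_0001439g0060.1), with 0.772, 0.489 and 3.19 TPM in BY-2 and 48.3, 44 and 43.2 TPM in VBI-0 (-4.73 ± 0.53, edgeR adjusted p = 4.71e-05). The highest GH3 transcripts were NtGH3.6cS (Nitab4.5_0002229g0040.1), with 3.93, 4.04 and 16.8 TPM in BY-2 and 0.0766, 0.169 and 0.138 TPM in VBI-0 (6.29 ± 0.65), and NtGH3.6aS (Nitab4.5_0001954g0010.1), with 47.2, 16.8 and 7.17 TPM and 0.425, 0.554 and 0.33 TPM (6.06 ± 0.76). Both lay higher in all BY-2 libraries although the BY-2 replicates differed widely. NtGH3.6bS followed with 2.65 ± 0.33.

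Among transcripts for oxidation and glycosylation, NtDAO1T and NtUGT3S were called lower in BY-2, and NtUGT3T lay lower without a call. NtDAO1T (Nitab4.5_0011544g0010.1), a dioxygenase that oxidizes IAA, had 71.8, 35.5 and 111 TPM in BY-2 and 310, 301 and 273 TPM in VBI-0 (-1.29 ± 0.27, edgeR adjusted p = 0.00218). Its S copy, NtDAO1S (Nitab4.5_0012341g0020.1), had 26.8, 14.4 and 32.9 TPM in BY-2 and 24.6, 28.8 and 21.6 TPM in VBI-0, with overlapping libraries and no call (0.67 ± 0.23). NtUGT3T (Nitab4.5_0000073g0500.1), named as a glycosyltransferase, was the most abundant inactivation transcript of both lines, with 313, 158 and 140 TPM in BY-2 and 525, 488 and 661 TPM in VBI-0. Its libraries did not overlap, but its log2 fold change of -0.92 ± 0.27 (edgeR adjusted p = 0.0151) fell short of the limit, which it passed without BY-2 replicate 1 (-1.24), without VBI-0 replicate 2 (-1.02) and on log2(TPM + 0.5) with limma (-1.54). NtUGT3S (Nitab4.5_0002570g0020.1) had 1.27, 1.44 and 0.121 TPM in BY-2 and 6.92, 2.06 and 17.4 TPM in VBI-0 (-2.65 ± 0.85, edgeR adjusted p = 0.0222). Its call was lost without BY-2 replicate 1 (edgeR adjusted p = 0.0507) and without VBI-0 replicate 3 (0.106).

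IAMT1 methyltransferases were again divided by copy. NtIAMT1aT (Nitab4.5_0001160g0030.1) had 2.65, 0.353 and 4.04 TPM in BY-2 and 20.2, 22 and 26.6 TPM in VBI-0 (-2.93 ± 0.52). NtIAMT1aS (Nitab4.5_0005221g0030.1) had 9.81, 5.92 and 10.5 TPM in BY-2 and 3.72, 5.94 and 4.26 TPM in VBI-0 (1.35 ± 0.24, edgeR adjusted p = 0.000991). The S copy was called higher although BY-2 replicate 2 lay just below the highest VBI-0 library, and its call was lost with limma on log2(TPM + 0.5) (0.83).

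Of the whole inactivation class of 25 tested transcripts 5 were higher and 9 lower in BY-2. Its sums were 322, 478 and 610 TPM in BY-2 and 1110, 1150 and 1260 TPM in VBI-0, with a log2 ratio of the means of -1.32, and -0.94 relative to the median shift of TPM. Most of either sum came from NtUGT3T and NtDAO1T.

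Amidohydrolases of the ILR1 and IAR3 families, which release IAA from its amino acid conjugates, were lower in BY-2 or not called. Of 12 tested, 4 were lower and 8 not called, and the sums were 67.8, 85.9 and 93.8 TPM in BY-2 and 233, 243 and 245 TPM in VBI-0. NtILR1bT (Nitab4.5_0001623g0060.1) had 0.338, 1.09 and 0.595 TPM in BY-2 and 33.4, 32.9 and 29.9 TPM in VBI-0 (-4.80 ± 0.40, edgeR adjusted p = 7.88e-06). NtIAR3bS (Nitab4.5_0009106g0040.1), the most abundant member of VBI-0, had 7.32, 6.85 and 13.3 TPM in BY-2 and 58.9, 63.7 and 59.8 TPM in VBI-0 (-2.20 ± 0.22). NtIAR3bT was lower too (-2.37 ± 0.21). The most abundant member of BY-2, NtILL3S (Nitab4.5_0013228g0010.1), had 25.3, 15.7 and 21.7 TPM there and 19.9, 21.2 and 23.6 TPM in VBI-0, with overlapping libraries (0.49 ± 0.18).

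Auxin influx carriers of the LAX family were lower in BY-2 except for LAX3. Of 8 tested LAX transcripts 6 were lower and 1 higher, and their sums were 153, 217 and 246 TPM in BY-2 and 466, 476 and 496 TPM in VBI-0. NtLAX1aS (Nitab4.5_0009993g0010.1) had 5.7, 7.02 and 7.85 TPM in BY-2 and 119, 124 and 113 TPM in VBI-0 (-3.91 ± 0.18, edgeR adjusted p = 4.53e-07). NtLAX1bT (Nitab4.5_0000119g0210.1) had 2.08, 1.94 and 1.53 TPM and 41.9, 38.5 and 47.1 TPM (-4.04 ± 0.25), and NtLAX2bT was lower as well (-3.77 ± 0.31). Both LAX1 transcripts differed without overlap and with little spread. NtLAX3S (Nitab4.5_0007422g0010.1) had 81.9, 36 and 63.9 TPM in BY-2 and 26.1, 27.5 and 27.8 TPM in VBI-0 (1.58 ± 0.24), whereas NtLAX3T (Nitab4.5_0000051g0320.1), the most abundant influx transcript of both lines, was not called (-0.33 ± 0.16).

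A pair of NRT1 transcripts, listed with the influx carriers because the Arabidopsis nitrate transporter NRT1.1 also carries auxin, was expressed in BY-2 and almost absent from VBI-0. Nitab4.5_0004430g0080.1 had 53.5, 35.3 and 38.7 TPM in BY-2 and 0.0303, 0.0425 and 0.0373 TPM in VBI-0. The ratio was 1250.5 (95% counting interval 427 to 6068, edgeR adjusted p = 2.78e-07). Nitab4.5_0000312g0370.1 had 4.38, 3.4 and 4.71 TPM in BY-2 and 0, 0 and 0.0364 TPM in VBI-0, a ratio of 377 (67.0 to 14930). The remaining 4 tested NRT1 transcripts were near 0 in both lines. Since the lines grew in different media, medium and line cannot be told apart here.

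PIN efflux carriers of the plasma membrane summed to 17.4, 26.0 and 51.3 TPM in BY-2 and to 95.6, 99.2 and 115 TPM in VBI-0. Of 8 tested, 3 were lower and 2 higher. NtPIN3aT (Nitab4.5_0000742g0170.1), the most abundant in VBI-0, had 1.5, 1.34 and 6.23 TPM in BY-2 and 44.5, 59.1 and 40.2 TPM in VBI-0 (-3.71 ± 0.54, edgeR adjusted p = 0.000272). NtPIN11Sb (Nitab4.5_0003204g0010.1) had 0.351, 0.288 and 1.81 TPM in BY-2 and 8.25, 8.1 and 8.07 TPM in VBI-0 (-3.10 ± 0.52). In these, and in most PIN transcripts, BY-2 replicate 3 was the highest BY-2 library. The 2 copies of PIN3b were called in opposite directions. NtPIN3bS (Nitab4.5_0005629g0010.1), with 3.29, 1.96 and 4.81 TPM and 1.94, 1.79 and 1.56 TPM, was higher in BY-2 (1.25 ± 0.31), whereas NtPIN3bT (Nitab4.5_0001832g0090.1), with 4.91, 3.26 and 9.73 TPM and 28.2, 29 and 29.8 TPM, was lower (-1.99 ± 0.32). The count of higher PIN transcripts fell from 2 to 0 without BY-2 replicate 3 and to 1 without any of the VBI-0 libraries, and the 3 lower calls held. The most abundant PIN transcript of BY-2, NtPIN11T (Nitab4.5_0000812g0030.1), was not called (0.82 ± 0.38).

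PILS transcripts, for auxin carriers of the endoplasmic reticulum, summed to 133, 191 and 242 TPM in BY-2 and to 136, 151 and 167 TPM in VBI-0. These sums overlapped. Of 16 tested members 5 were higher and 2 lower. NtPILS5bT (Nitab4.5_0000495g0070.1) had 9.21, 18.2 and 16.5 TPM in BY-2 and 0.143, 0 and 0.328 TPM in VBI-0 (6.63 ± 0.55, edgeR adjusted p = 7.97e-06), and NtPILS5bS (Nitab4.5_0004944g0030.1) had 8.85, 6.03 and 11.6 TPM and 1.14, 1.06 and 0.857 TPM (3.53 ± 0.31). Both copies of PILS5b were thus high in BY-2. At low levels, a PILS2 transcript (Nitab4.5_0007384g0050.1) had 0.401, 0.351 and 0.633 TPM in BY-2 and 0 TPM in VBI-0, at least 13.4-fold higher, and a PILS3 transcript (Nitab4.5_0005948g0010.1) had 0 TPM in BY-2 and 0.681, 0.583 and 0.39 TPM in VBI-0, at least 6.29-fold lower. The most abundant PILS transcript of BY-2, NtPILS6aT (Nitab4.5_0003037g0140.1), was higher by 1.43 ± 0.23, and that of VBI-0, NtPILS5aT (Nitab4.5_0001467g0140.1), was not called (-0.09 ± 0.24). The 9 PIN transcripts listed for the endoplasmic reticulum summed to at most 0.456 TPM in any of these libraries and were not tested.

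ABCB transporters, some of which move auxin, were lower in 8 and higher in 3 of 17 tested transcripts. NtABCB21S (Nitab4.5_0003324g0090.1) had 156, 95 and 57.2 TPM in BY-2 and 8.66, 7.58 and 9.53 TPM in VBI-0 (4.01 ± 0.38, edgeR adjusted p = 1.82e-05). Its T copy, NtABCB21T (Nitab4.5_0000363g0120.1), had 101, 64.7 and 37.5 TPM and 94.2, 82.1 and 108 TPM, with no call (-0.04 ± 0.33). They were the most abundant ABCB transcripts of BY-2 and VBI-0, respectively. NtABCB9cS (Nitab4.5_0004447g0010.1), with 0.0435, 0.0201 and 0.117 TPM in BY-2 and 6.35, 6 and 8.41 TPM in VBI-0, was the lowest called (-6.49 ± 0.39), followed by NtABCB1S (-2.35 ± 0.24) and NtABCB15T (-2.17 ± 0.21). The highest fitted value, of an NtABCB9aT transcript (Nitab4.5_0000982g0060.1), came from 55 reads in BY-2 and 3 in VBI-0, a ratio of 26.3 (8.53 to 131).

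The share of the S copy in the transcripts of a gene often differed between the lines. In the study's list 38 names occur once with S and once with T, and 28 of these pairs had a summed mean TPM of at least 1 in both lines. The share of the S copy in that sum differed by at least 30 percentage points in 14 pairs and by less than 10 in 7, with a median difference of 28.1 points. It was higher in BY-2 in 19 pairs and lower in 9, and the libraries of the lines did not overlap in 22 pairs, 16 of them with the higher S share in BY-2. Shares were not computed for copies of other genes, so whether these pairs differ from the rest of the genome was not tested. Within pairs called for both copies, the copies were called in the same direction in 7 and in opposite directions in 4, namely ABCB1, AMI1, IAMT1a and PIN3b. Of these 4 only AMI1 kept both calls on log2(TPM + 0.5) with limma, where NtABCB1T (0.70), NtIAMT1aS (0.83) and NtPIN3bS (0.70) lay below the limit. NtABCB1T, with 14.1, 8.76 and 8.04 TPM in BY-2 and 6.61, 5.54 and 5.81 TPM in VBI-0, also lost its call without BY-2 replicate 1 (0.84), and NtPIN3bS without BY-2 replicate 3 (0.94).

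The largest contrast was in NtGH3.6a, whose S share was 90.9%, 73.5% and 88.2% in BY-2 and between 10.8% and 22.7% in VBI-0. In NtIAMT1a it was 78.7%, 94.4% and 72.2% in BY-2 and 15.5%, 21.3% and 13.8% in VBI-0. The share was most even between replicates in NtABCB21, with 60.8%, 59.5% and 60.4% in BY-2 and 8.42%, 8.45% and 8.14% in VBI-0, although the levels of that gene varied widely in BY-2. NtTIR1 and NtABCB1 went the other way: the S share of NtTIR1 was 24.4%, 31.0% and 29.5% in BY-2 and 70.3%, 52.9% and 53.4% in VBI-0, and that of NtABCB1 32.9%, 28.1% and 37.9% and 82.6%, 85.5% and 85.2%. NtIAR3b kept its share, with means of 79.7% and 77.5%, while both copies were lower in BY-2. Reads of 50 bp that fit both copies were divided between them by the quantification, and the part of this in the shares was not tested.

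**Figure D5:**
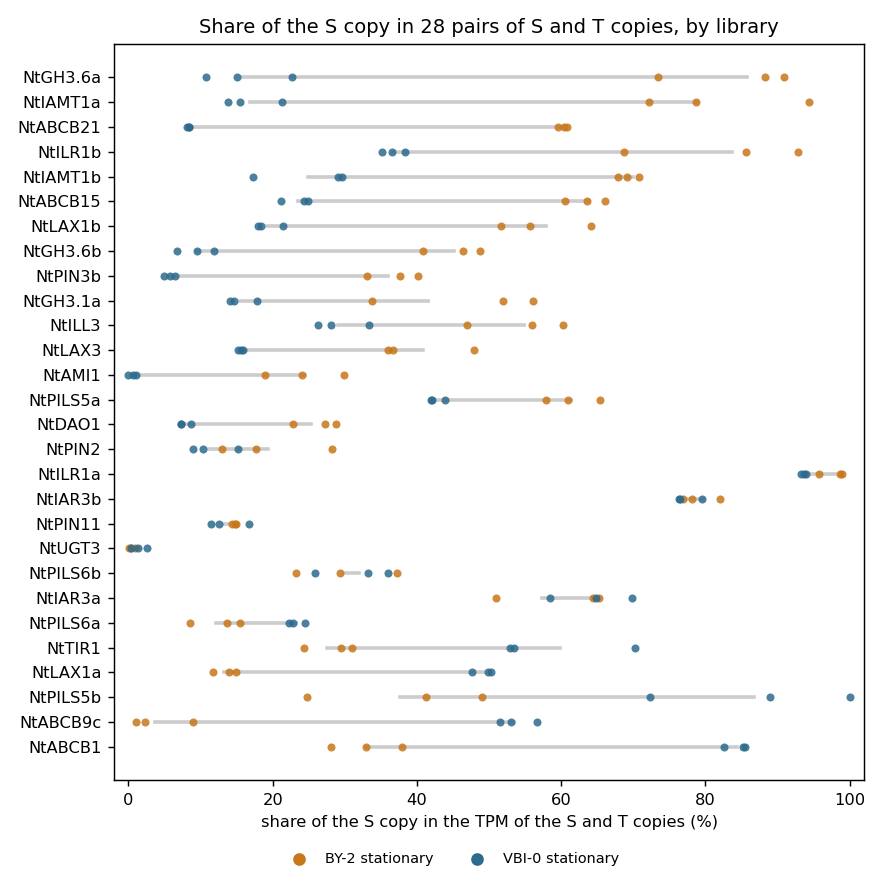
Share of the S copy in the TPM of both copies for 28 pairs in each of the 3 BY-2 (orange) and 3 VBI-0 (blue) libraries, ordered by the difference between the lines, with a grey line between the values from the mean TPM. The S share ranged from 85.8% in BY-2 against 15.7% in VBI-0 for NtGH3.6a to 33.0% against 84.4% for NtABCB1.

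Transcripts silent in one line and expressed in the other occurred in both directions. Taking as silent fewer than 1 read in each library, and as expressed 2 TPM or more on average in the other line, 1380 transcripts were silent in BY-2, 4.40% of the 31366 expressed at that level in VBI-0. In the other direction, 4.52% of the 28660 expressed in BY-2 were silent in VBI-0. Of those silent in BY-2, 6 belonged to the 10 auxin classes: 3 AUX/IAA transcripts, 1 SAUR-like transcript and the NtTAA2S pair. The third AUX/IAA transcript, Nitab4.5_0022877g0010.1, was seen in VBI-0 replicate 1 alone, with 3 reads. Of those silent in VBI-0, 1 belonged to the 10 classes, the NRT1 transcript Nitab4.5_0000312g0370.1. The number of class members expressed at that level was not counted, so the 6 and the 1 cannot be set against the 4.40% and 4.52% of all transcripts. In the habituated lines, 465 of the transcripts silent in BY-2 were silent in every BY-2H library too, and 569 of those silent in VBI-0 were silent in every VBI-2 library. BY-2H libraries came from another company as paired reads, so the first of these counts compares unlike libraries.

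Some silent transcripts stood side by side on a scaffold. Among transcripts with a mean TPM of at least 2 in either line, ordered by gene number, runs of 3 or more neighbours silent in BY-2 occurred 25 times with 79 transcripts, and runs silent in VBI-0 42 times with 149 transcripts. The longest runs silent in VBI-0 were 6 of the 7 expressed transcripts of scaffold Nitab4.5_0001088 and all 5 of Nitab4.5_0007445, with 5 each on Nitab4.5_0000143, Nitab4.5_0000659 and Nitab4.5_0000771. In BY-2 the longest were all 4 expressed transcripts of Nitab4.5_0006066 and of Nitab4.5_0008797, and 4 of 5 on Nitab4.5_0000595 and Nitab4.5_0006433.

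The largest contrasts of all transcripts with a mean of at least 10 TPM in one line were of this kind. Nitab4.5_0006433g0010.1 had 0 TPM in BY-2 and 360.7, 362.8 and 358.4 TPM in VBI-0, at least 5434-fold lower in BY-2. It had a mean of 210 TPM in stationary BY-2H cells, so it was silent in BY-2 but not in the habituated line. Nitab4.5_0000235g0010.1 had 0 TPM in BY-2 and 976.5, 916.9 and 763.9 TPM in VBI-0, at least 4106-fold lower. The ARF transcript next to it, Nitab4.5_0000235g0020.1, was also lower in BY-2 (-2.48 ± 0.25), and of 10 tested transcripts on that scaffold 5 were lower and 5 not called. In the other direction, Nitab4.5_0001163g0070.1 had 783.9, 1133 and 770 TPM in BY-2 and 0 TPM in VBI-0, at least 14452-fold higher, and Nitab4.5_0000106g0380.1, on the scaffold of the ARF transcript found in BY-2, had 167.7, 152.5 and 137.9 TPM and 0 TPM, at least 11509-fold higher. The files pair these IDs with no gene name.

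Components outside the auxin pathway that the study followed were examined in the same way. Of 18 Polycomb repressive complex 2 transcripts, which encode a histone methylation complex that keeps genes silent, 3 were higher and 4 lower in BY-2, and their sums were 155, 191 and 211 TPM in BY-2 and 347, 347 and 376 TPM in VBI-0. Nitab4.5_0003914g0030.1 had 2.93, 1 and 4.89 TPM in BY-2 and 39.9, 39.8 and 45.7 TPM in VBI-0 (-3.38 ± 0.39, edgeR adjusted p = 5.63e-05), and Nitab4.5_0009192g0020.1 had 11.8, 6.28 and 16.1 TPM and 0.488, 1.17 and 1.09 TPM (4.14 ± 0.40). Of 4 tested EMF2-like transcripts 1, Nitab4.5_0001472g0030.1, was higher in BY-2 (1.57 ± 0.18) and 3 were not called. One of those not called, Nitab4.5_0000600g0150.1, had a mean of 21.3 TPM in BY-2 and 18.3 TPM in VBI-0. EMF2-like sums overlapped, with 42.9, 54.1 and 61.9 TPM in BY-2 and 46.4, 50.1 and 52.6 TPM in VBI-0. The most abundant Polycomb transcript in VBI-0, Nitab4.5_0000283g0360.1, lay just inside the limit (-0.96 ± 0.22). The count of lower Polycomb transcripts rose from 4 to 7 without BY-2 replicate 1.

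Of 4 transcripts similar to E2Fb, a transcription factor of the cell cycle, 1 was lower and 1 higher. The higher one, Nitab4.5_0000380g0210.1, had 2.55, 1.29 and 4.82 TPM in BY-2 and 0, 0 and 0.0562 TPM in VBI-0, and the lower one, Nitab4.5_0000893g0030.1, 4.39, 3.43 and 6.6 TPM and 17.3, 17.2 and 16.9 TPM (-1.28 ± 0.23). Without BY-2 replicate 3, VBI-0 replicate 1 or VBI-0 replicate 3 the count of lower ones was 2. Of 2 transcripts similar to SKP2A, an F-box protein of cell cycle control, Nitab4.5_0003622g0030.1 was higher (1.61 ± 0.28) and the more abundant Nitab4.5_0000174g0050.1 level (0.01 ± 0.23).

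Of the reference transcripts of the study's RT-qPCR, the aminopeptidase-like one (Nitab4.5_0002975g0050.1) had 54.9, 50.2 and 58.2 TPM in BY-2 and 50.9, 53.5 and 52.5 TPM in VBI-0 (0.33 ± 0.15, not called). NtEF1a (Nitab4.5_0001802g0030.1) had 340, 366 and 581 TPM in BY-2 and 904, 858 and 981 TPM in VBI-0. Its libraries did not overlap, and its log2 fold change of -0.92 ± 0.18 (edgeR adjusted p = 0.00147) lay just inside the limit, which it passed without BY-2 replicate 3 (-1.14) and on log2(TPM + 0.5) with limma (-1.13).

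Because the culture age of BY-2 is in doubt, growth phase was examined in libraries that the line comparison did not use. Between stationary and exponential VBI-2 cells 785 of 45612 tested transcripts (1.72%) were called, and between the phases of BY-2H 1200 of 44765 (2.68%). Of the transcripts tested in both, those higher in BY-2 than in VBI-0 were called between the VBI-2 phases in 2.14% and those lower in BY-2 in 2.19%, and between the BY-2H phases in 3.49% and 3.19%. Of the transcripts not called between BY-2 and VBI-0 the phase calls made up 1.27% in VBI-2 and 2.05% in BY-2H, lower shares than among the line calls. The phases of BY-2 itself were not compared, and the part of culture age in the line calls was not tested. With exponential VBI-0 libraries in place of stationary ones, 11639 transcripts were higher and 12826 lower, and 21348 of the 24245 calls were the same in direction.

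The inactivation class stood apart in this respect. Of its 14 line calls 7 were also called between the VBI-2 phases, namely the 5 lower GH3.1 transcripts, NtDAO1T and NtGH3.6bS. The GH3.1 transcripts and NtDAO1T were lower, and NtGH3.6bS higher, in stationary than in exponential VBI-2 cells. The log2 fold change of NtGH3.1bT2 (Nitab4.5_0000284g0040.1), for example, was -3.62 between stationary and exponential VBI-2 (edgeR adjusted p = 7.71e-06) and -2.69 ± 0.45 between BY-2 and VBI-0, where it had 1.06, 1.24 and 4.79 TPM and 14.4, 18.7 and 19 TPM. In BY-2H none of the 5 lower GH3.1 transcripts passed between the phases (lowest edgeR adjusted p = 0.368). Among the other line calls of the class, NtGH3.6cS (1.01, edgeR adjusted p = 2.9e-18) and NtIAMT1bT (1.24, edgeR adjusted p = 4.21e-12) were higher in stationary than in exponential BY-2H cells. Of the 25 AUX/IAA line calls, 4 were called between the VBI-2 phases. In the comparison with exponential VBI-0 cells the calls of NtIAMT1bT (-0.05), NtLAX1bS (-0.60), NtLAX1aT (-0.77), NtPIN3bT (-0.91) and NtABCB1T (0.71) were lost, and the part of culture age in these 5 differences cannot be told apart from line.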

How the data were processed

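RNA-seq of 3 stationary BY-2 and 3 stationary VBI-0 libraries was used. The authors quantified reads with Salmon 1.3.0 against the Nitab4.5 transcript set. The sample labels name Trimmomatic for read trimming, and the methods of the study other tools. The deposited tables held estimated counts, which were not whole for 81.4% to 82.0% of the transcripts with reads because reads that fit several transcripts are divided, and TPM values, which the authors' Salmon run scaled by effective length and total. Estimated reads were 11364447 to 13111763 per BY-2 library and 12001963 to 16731362 per VBI-0 library.

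Estimated counts were rounded and compared with edgeR 4.0.16 (TMM, quasi-likelihood test, Benjamini-Hochberg adjustment over all transcripts tested) under R 4.3.3. A transcript was tested if its mean TPM exceeded 0.5 in any of the 7 groups of the series, so 4068 of those tested did not exceed it in either line. Fold changes against lines with no reads were bounded by assuming 3 reads in that line's libraries together. For 1 to 3 reads the ratio is given with an exact (Clopper-Pearson) 95% interval, which covers counting error only. Values after ± are approximate standard errors of the log2 fold change, computed from the fold change and the F statistic of the test. Counts were simulated for 47743 transcripts, of which 100 were changed 4-fold and 100 changed 2-fold, all drawn from those above a minimum mean count. The test recovered 83% of 4-fold and 16% of 2-fold changes, the latter lying at the fold limit, with 0 in the wrong direction and 15 false calls. Far fewer transcripts were changed than were called between the lines, and recovery at low counts was not simulated.

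Classes were taken by ID from the study's gene lists. Named transcripts were genes the study names, up to 3 highest and 3 lowest called members without overlap and the most abundant members of each class in each line, pairs of copies that differ, the 2 highest and 2 lowest of all, and the scaffolds with the longest silent runs. Others are marked or serve as neighbours and examples chosen after their values were seen. These members and lists were chosen with earlier results of these data known. Silence, shares of copies and class sums were described without a test. The comparison was repeated with DESeq2 1.42.0, with median-of-ratios scaling, 3 other filters, an effective-length offset, limma 3.58.1 on log2(TPM + 0.5) and log2(TPM + 1), fits with 21 or 15 libraries, a replicate block, exponential VBI-0 libraries, other fold limits and leaving out each library.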

Additional observations from a re-analysis of the deposited data

How the results depend on the processing

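Under 20 alternatives no called direction reversed among 102 named transcripts. Many of these were chosen as the most extreme called members of the main fit, and the alternatives with other fold limits reused that fit. The lack of reversals is therefore no independent check of the directions. A change of sign was counted only where the main or the alternative fit called the transcript. Of the 102, 71 kept their side of the limits in every alternative that tested them. Of 2027 such comparisons, 46 lost and 33 gained a call. The count of transcripts higher in BY-2 fell from 11892 to 7821 with limma on log2(TPM + 0.5) and to 6971 on log2(TPM + 1), where the median TPM shift between the lines is kept, and the count of lower transcripts was then 15229 and 13309. Without one library at a time, 10896 to 11523 were higher and 11123 to 12653 lower, and in the 10 auxin classes 36 to 41 and 64 to 72. Silent transcripts numbered 2210 in BY-2 and 1881 in VBI-0 with at most 3 reads over the 3 libraries. With a mean of at least 5 TPM in the other line they numbered 715 in BY-2 and 791 in VBI-0, and with at least 1 TPM 2086 in BY-2 and 1686 in VBI-0, so their order depended on the setting. Leaving out a library gave 1374 to 1765 in BY-2 and 1226 to 1487 in VBI-0. The replicate numbers do not pair the samples, since deviations of same-numbered libraries correlated at 0.036, -0.057 and -0.089. With the number as a block 10842 transcripts were higher and 11401 lower, and NtYUCCA3T was the only named transcript whose call changed (adjusted p = 0.098 in edgeR). In the 10 auxin classes the block gave 36 higher and 66 lower. Depth limits the low members: the bound of NtYUCCA3T rests on 14 reads.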
